A study of Mus musculus with 15 samples.

Results

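The effect of losing LHX6 was set against the effect seen in libraries labelled *Mtg8* mutant, gene by gene, in MGE-derived interneurons sorted from the E14.5 mouse cortex. Of 24158 genes listed in both normalised tables, 15629 had a mean of 10 or more in each table, and all of these were tested over the 15 libraries of the series. For each gene an effect is the mutant mean minus the control mean of log2(value + 1) within 1 table. The difference of effects is the *Lhx6* effect minus the *Mtg8* effect, so a negative difference means that the *Lhx6* effect was the lower of the pair. The genes described are those that changed in one mutant alone or in opposite directions.

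All groups carried the Nkx2-1-Cre transgene and the R26R-YFP reporter, on a mixed C57BL6/CBA background, and YFP-positive cells were purified from cortex of single embryos. The *Lhx6* table held 4 controls with both wild-type *Lhx6* alleles and 5 *Lhx6*-/- mutants. The *Mtg8* table held 3 controls with both wild-type *Mtg8* alleles and 3 libraries labelled as *Mtg8*-/- mutants, from a germline allele that carries a LacZ insertion. Both mutations were germline ones, so cells around the interneurons lacked the gene too, and Nkx2-1-Cre marks other cells of the MGE lineage as well as interneurons. By the study's methods controls were littermates of the mutants of their own table. Each table was normalised alone.

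LHX6 is a LIM-homeodomain transcription factor that is switched on downstream of NKX2-1 as MGE cells leave the cell cycle, and it is known for its part in the specification and migration of somatostatin and parvalbumin interneurons. MTG8, encoded by *Runx1t1*, is known as a transcriptional co-repressor. It reaches its target genes through partner transcription factors, since it cannot bind DNA alone. Interneurons of the caudal ganglionic eminence (CGE) arise without *Lhx6* and are marked by genes such as *Adarb2* and *Cxcl14*.

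Depth ran from 12218422 to 22053032 reads assigned to genes. Interneuron genes were present in every library, with *Gad1* between 1719 and 3619 normalised counts, and pyramidal-lineage genes were present too, with *Neurod6* between 4146 and 16641. Two-sided tests below come from limma across all 15629 genes with Benjamini-Hochberg adjustment, called at an adjusted p below 0.05. Each library came from its own embryo, and the p-values measure the spread between these embryos. Some libraries stood apart. The library names follow 2 styles, with or without a date: the 4 *Lhx6* controls, *Lhx6* mutant 6, *Mtg8* control 4 and *Mtg8*-labelled mutants 3 and 4 had undated names, and the other 7 libraries had dated ones. Genotype and name style therefore nearly coincide in the *Lhx6* table. *Mtg8*-labelled mutant 2 differed from mutants 3 and 4 over many genes, and *Lhx6* mutant 6 tended to lie nearer to the controls than the other *Lhx6* mutants. Both share the rest of their name, up to a last number, with controls 1 and 2 of their own table, and no other mutant shares a name with a control. All 39 genes that the rule for naming genes took from those changed in *Lhx6* mutants alone or in opposite directions were still called without *Mtg8*-labelled mutant 2, and all 39 without *Lhx6* mutant 6. Both of these fits called more genes than the main one, so this is a weak check. Calls lost when other libraries were left out are given below.

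Loss of *Lhx6* and the *Mtg8* label differed in their effect on 84 genes (0.537% of those tested). For 23 of them the *Lhx6* effect was the lower one (0.147%), and for 61 it was the higher one (0.390%). In 63 genes the *Lhx6* mutants changed and the *Mtg8* libraries did not pass even an unadjusted p of 0.05, with 19 lower and 44 higher in *Lhx6* mutants. In 17 genes the mutants moved in opposite directions, and 16 of these were higher in *Lhx6* mutants and lower in *Mtg8* libraries. By limma 0 genes met the rule for a change in *Mtg8* libraries alone, where edgeR gave 1, DESeq2 gave 32 and unadjusted p-values gave 302. Of the other 4 genes, *Sst*, *Thbs1* and *Pbx3* had effects of the same sign in both with a larger *Lhx6* effect. The *Mtg8* effects of *Thbs1* and *Pbx3* passed only at unadjusted p-values (adjusted p = 0.232 for each). *Ier2* is described with the *Mtg8* libraries.

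The effects considered singly set the scale for this contrast. In *Lhx6* mutants 169 genes were lower (1.08%) and 195 were higher (1.25%), whereas in *Mtg8* libraries 1 gene passed, *Sst* (0.00640%). At an unadjusted p below 0.05, 763 genes passed for *Mtg8* (4.88%), with 307 lower and 456 higher. About that share of genes passes such a threshold when no gene changes. Counts that rest on an unadjusted *Mtg8* p, here and below, are therefore not counts of shown *Mtg8* changes. Of the 364 genes called for *Lhx6*, 287 did not pass the test of the difference, so an effect past the threshold in one table and not in the other was mostly not shown to differ between the mutants. Over all 15629 genes the effects had a Pearson correlation of -0.058 and a Spearman correlation of -0.118, given as a description across genes, which are not independent replicates. At an unadjusted p below 0.05 in both tables, 84 genes had opposite signs (0.537%) and 73 had the same sign (0.467%).

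**Figure D1:**
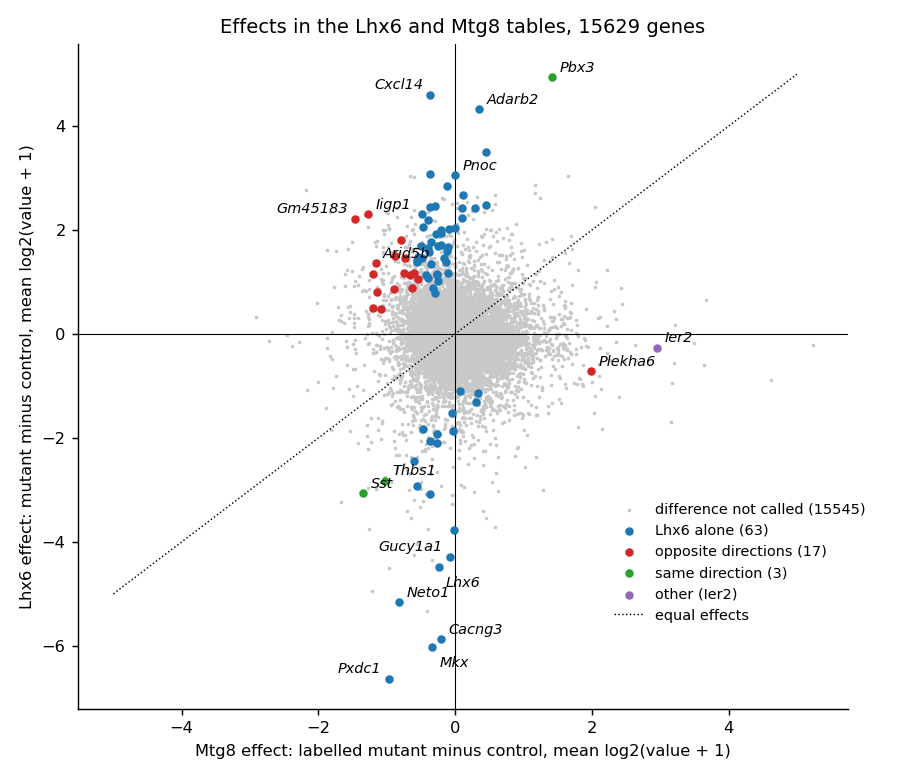
Each point is 1 of the 15629 genes tested, with the *Mtg8* effect on the x axis and the *Lhx6* effect on the y axis, both as mutant minus control in mean log2(value + 1). The 63 genes changed in *Lhx6* mutants alone lie close to the vertical axis, 16 of the 17 genes changed in opposite directions lie in the upper left, and the dotted line marks equal effects.

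The targeted genes were examined first. *Lhx6* (ENSMUSG00000026890.19, chr2:36081953-36105408 in GRCm38 as all positions here, minus strand) was at 8441, 5812, 7552 and 7183 normalised counts in its controls and at 313, 236, 495, 271 and 340 in its mutants. In the *Mtg8* table it was at 8994, 9376 and 9489 in controls and at 7055, 8666 and 7953 in mutants. The *Lhx6* groups did not overlap and the *Mtg8* groups did not either, but the *Mtg8* effect was -0.24 ± 0.22 (SE) with an unadjusted p of 0.282. *Lhx6* itself thus falls under the rule for *Lhx6* mutants alone, which the mutation itself fixes.

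*Runx1t1* (ENSMUSG00000006586.15, chromosome 4, plus strand) went against the label. It was at 7938, 10264 and 8470 in *Mtg8* controls and at 13934, 12250 and 12352 in the libraries labelled mutant, all 3 above every control. The gene count covers all exons, and which of them the LacZ allele leaves in the transcript was not tested, so it does not check the allele. In the *Lhx6* table *Runx1t1* was at 7232, 6394, 8945 and 7225 in controls and at 26527, 15377, 16613, 19119 and 12227 in mutants. It rose in *Lhx6* mutants by 1.23 ± 0.18 (SE, adjusted p = 0.000354). The *Mtg8* effect was 0.54 ± 0.21, and the difference of effects, 0.70 ± 0.28, had an adjusted p of 0.367.

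For reference, the shared genes *Sst* and *Npy* had lower means in the mutants of both tables. *Sst*, the neuropeptide somatostatin, had an *Lhx6* effect of -3.06 ± 0.14 and an *Mtg8* effect of -1.34 ± 0.17, which differed by -1.71 ± 0.22 (SE, adjusted p = 0.000528). *Npy*, neuropeptide Y, had effects of -1.61 ± 0.22 and -1.13 ± 0.27. By limma its *Mtg8* effect passed only at an unadjusted p (0.000571, adjusted p = 0.470). The difference of the *Npy* effects, -0.48 ± 0.35, did not pass (adjusted p = 0.647), with a 95% interval from -1.21 to 0.25.

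Among glutamate receptor genes, *Cacng3*, *Neto1* and *Syndig1* fell in *Lhx6* mutants alone. Of 21 tested genes of the list of glutamate receptors and auxiliary subunits, 6 fell and none rose in *Lhx6* mutants, and 3 of them were called for *Lhx6* mutants alone. Over all genes tested 1.08% fell and 1.25% rose in *Lhx6* mutants and 0.537% were called for the difference, which is the background for each list count here. Of these, *Cacng3* encodes an AMPA receptor TARP, *Neto1* a partner of kainate and NMDA receptors and *Syndig1* an AMPA receptor-associated transmembrane protein. The pore-forming AMPA subunits *Gria1* and *Gria4* and the kainate subunit *Grik2* also fell in *Lhx6* mutants, but their differences of effects had adjusted p-values of 0.415, 0.419 and 0.574. Other auxiliary subunits did not pass in *Lhx6* mutants, with *Lhx6* effects of 0.62 for *Cacng2*, 0.60 for *Cacng4* and -0.18 for *Neto2*. The list median was 0.22 for the *Lhx6* effect and -0.30 for the *Mtg8* effect, against -0.045 and -0.012 over all genes tested.

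*Cacng3* (ENSMUSG00000066189.9, chr7:122670492-122769393) was at 1105, 730, 940 and 876 normalised counts in *Lhx6* controls and at 2.47, 11.1, 31.7, 35.8 and 16.1 in *Lhx6* mutants. It was at 2192, 1945 and 1870 in *Mtg8* controls and at 1708, 1695 and 1793 in *Mtg8*-labelled mutants. The *Lhx6* groups were far apart, and the *Mtg8* groups also did not overlap, by a much smaller step. The effects were -5.87 ± 0.47 and -0.21 ± 0.57, and they differed by -5.67 ± 0.73 (SE, adjusted p = 0.000662).

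*Neto1* (ENSMUSG00000050321.3, chr18:86394952-86506718) was at 1531, 1094, 1891 and 1322 in *Lhx6* controls and at 38.4, 73.1, 66.1, 26.2 and 18.57 in *Lhx6* mutants. It was at 1753, 2279 and 1255 in *Mtg8* controls and at 892, 1038 and 991 in *Mtg8*-labelled mutants, again without overlap. The *Mtg8* effect of -0.82 ± 0.39 had an unadjusted p of 0.0536 and a 95% interval from -1.65 to 0.014, so *Neto1* sits at the edge of the class. The difference of effects was -4.34 ± 0.51 (adjusted p = 0.000271). Its exons overlap those of *Gm50384*. *Syndig1* ranged from 1130 to 1539 in *Lhx6* controls and from 118 to 232 in *Lhx6* mutants, and its *Mtg8* groups overlapped at 1484 to 1822 and 1067 to 1549. The exons of *Syndig1*, *Slc1a2*, *Zfp704* and *Pde3a* also overlap other annotated genes.

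A subunit of soluble guanylate cyclase fell in *Lhx6* mutants alone. *Gucy1a1* (ENSMUSG00000033910.13, chr3:82092427-82145789, minus strand), the alpha subunit of the nitric oxide receptor that makes cGMP, was at 1701, 1247, 1701 and 1553 in *Lhx6* controls and at 75.5, 54.6, 99.7, 97.8 and 71.8 in *Lhx6* mutants. In the *Mtg8* table it was at 2676, 3149 and 3612 in controls and at 3456, 2207 and 3444 in mutants, and these groups overlapped. The *Mtg8* effect was -0.071 with a 95% interval from -0.58 to 0.44. The difference of -4.21 ± 0.31 had an adjusted p of 7.67e-07, the smallest after that of *Lhx6* itself. *Gucy1b1*, the beta subunit, also fell in *Lhx6* mutants, by 1.28 on the log2 scale, but its difference of effects did not pass (adjusted p = 0.213). Of 10 tested genes of nitric oxide and cGMP signalling, these 2 fell in *Lhx6* mutants.

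Among synaptic organizers, 6 of 30 tested genes fell and 2 rose in *Lhx6* mutants, and *Nxph2* and *Ptprd* were called for *Lhx6* mutants alone. *Nxph2*, a secreted ligand of neurexins, was at 2973, 2917, 3105 and 3059 in *Lhx6* controls and at 245, 330, 802, 397 and 386 in *Lhx6* mutants. Its *Mtg8* groups did not overlap either, at 5424, 5673 and 6273 in controls and 4025, 3850 and 3873 in mutants, and the *Mtg8* effect of -0.56 ± 0.28 had an unadjusted p of 0.0575. The effects differed by -2.36 ± 0.36 (adjusted p = 0.00225). *Ptprd*, a presynaptic receptor phosphatase, had effects of -2.11 and -0.26, and its exons overlap *B230208B08Rik*. *Nxph1*, *Ptprt* and *Elfn1* also fell in *Lhx6* mutants, with adjusted p-values for the difference of 0.219, 0.0638 and 0.227.

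Other lower genes had no list in common. *Mkx*, a homeobox gene, was at 197, 153, 184 and 95.8 in *Lhx6* controls and at 14.8, 0, 0, 0.969 and 1.24 in mutants, while *Mtg8* controls ranged from 123 to 222 and *Mtg8*-labelled mutants from 114 to 162. *Pxdc1* was at 414, 325, 442 and 364 in *Lhx6* controls and at 0, 4.63, 1.86, 10.7 and 3.71 in mutants. Its *Mtg8* groups were at 142, 108 and 188 and at 54.4, 87.3 and 78.7, without overlap, with an *Mtg8* effect of -0.97 ± 0.61. These low mutant values make the fitted *Lhx6* effects of *Mkx* and *Pxdc1*, -6.03 and -6.63, dependent on the pseudocount of 1. *Efcab6*, which encodes an EF-hand protein, had effects of -3.76 and -0.019. *Sema3a*, a secreted repellent for axons and migrating neurons, ranged from 885 to 1297 and from 116 to 350 in the *Lhx6* table, and its difference of -1.85 ± 0.40 was close to the threshold (adjusted p = 0.0418). That call was lost in 12 of the 15 fits that left out 1 library. With name style as a term the difference was -1.39 and was not called (adjusted p = 0.709), and within the undated libraries it was -0.51.

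Of the 44 genes that rose in *Lhx6* mutants alone, the markers of CGE interneurons *Cxcl14* and *Adarb2* had the largest differences. Among 14 tested genes of CGE interneuron identity, 4 rose and 2 fell in *Lhx6* mutants, and 3 were higher in the difference of effects (*Adarb2*, *Cxcl14* and *Igf1*). *Sp9* and *Nr2f2* rose too, by 1.19 and 0.88, with adjusted p-values for the difference of 0.371 and 0.416. *Npas1* and *Htr3a* fell (adjusted p = 0.0594 and 0.455 for the difference). The list median of the *Lhx6* effect was 0.54 and that of the *Mtg8* effect 0.067.

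*Cxcl14* (ENSMUSG00000021508.11, chr13:56288643-56296551, minus strand), a chemokine, was at 25.0, 33.7, 24.9 and 30.8 in *Lhx6* controls and at 510, 566, 1119, 945 and 602 in *Lhx6* mutants. It was at 13.4, 21.3 and 10.8 in *Mtg8* controls and at 7.93, 22.1 and 7.64 in *Mtg8*-labelled mutants. The *Lhx6* groups were separate and the *Mtg8* groups overlapped. The difference of effects was 4.97 ± 0.55 (adjusted p = 0.000178). *Adarb2* (ENSMUSG00000052551.16, chr13:8202866-8768747, plus strand), of the RNA-editing deaminase family, was at 42.3, 36.3, 15.7 and 31.6 in *Lhx6* controls and at 527, 513, 876, 806 and 461 in mutants. Its *Mtg8* values were 57.0, 35.2 and 23.5 in controls and 85.0, 22.98 and 51.2 in mutants, and the effects differed by 3.97 ± 0.60 (adjusted p = 0.00225). With name style as a term the difference for *Adarb2* was 2.98 and was not called (adjusted p = 0.105).

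Ligands, receptors and a transporter followed. *Pnoc*, the precursor of the neuropeptide nociceptin, was at 116, 82.4, 94.0 and 80.4 in *Lhx6* controls and at 1001, 959, 793, 815 and 453 in *Lhx6* mutants, against 157.8 to 200.5 in *Mtg8* controls and 164 to 222 in *Mtg8*-labelled mutants. *Angpt1*, a growth factor for the TEK receptor, ranged from 10.6 to 24.0 and from 102 to 229 in the *Lhx6* table. *Epha7*, an ephrin receptor, ranged from 497 to 819 and from 2533 to 5493, and *Slc1a2*, a glutamate transporter, from 275 to 327 and from 1056 to 1992. The *Mtg8* groups of all 4 overlapped, and their differences of effects were 3.05, 3.44, 2.81 and 2.75. *Gabrg3*, the gamma 3 subunit of the GABA-A receptor, had effects of 2.67 and 0.12 and was the one gene called for the difference by limma among 19 tested genes of GABA synthesis, transport and receptors. DESeq2 also called *Abat* and *Gabra2*.

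*Fign*, which encodes the microtubule-severing protein fidgetin, was at 60.6, 41.7, 56.2 and 41.0 in *Lhx6* controls and at 535, 641, 700, 646 and 384 in mutants, and *Csmd3*, a large transmembrane protein, ranged from 44.3 to 55.8 and from 212 to 502. Their *Mtg8* effects were 0.46 and -0.12. Both *Sox1ot*, a long non-coding RNA of the *Sox1* locus, and *Sox1* itself, a transcription factor of neural progenitors and ventral neurons, were in the class, with differences of 2.61 and 2.19. The unnamed gene *Gm43111* had a difference of 2.79.

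**Figure D2:**
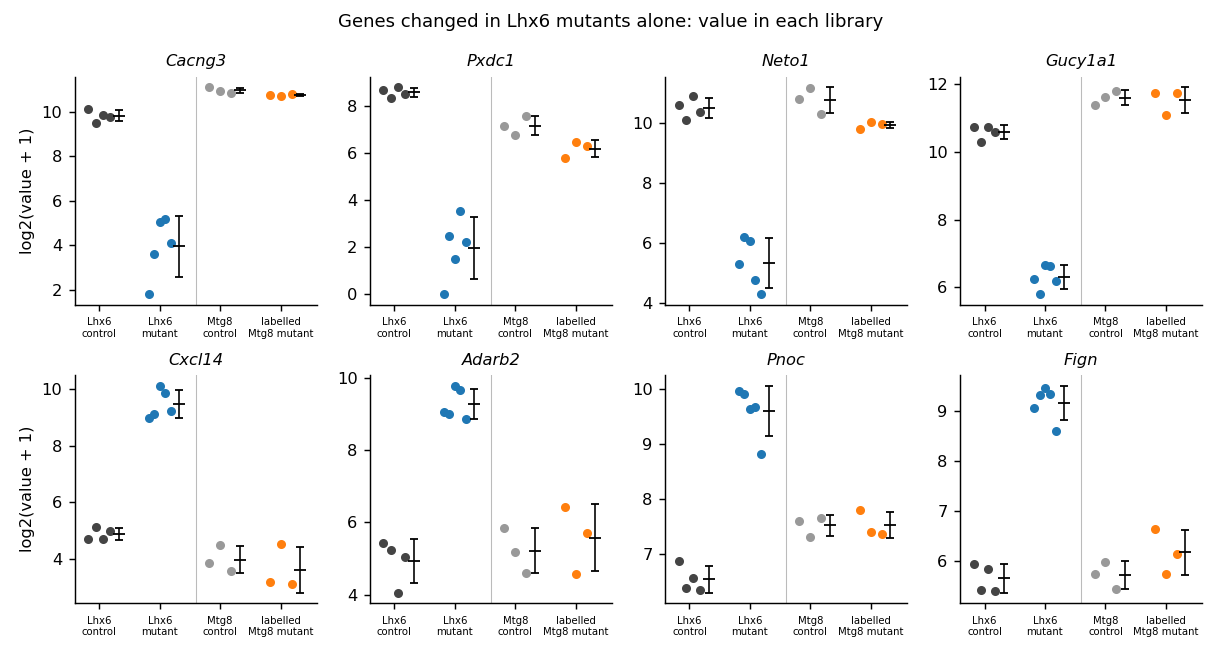
Each panel plots 1 gene as log2(value + 1) of the normalised count, with 1 point per library (4, 5, 3 and 3 libraries from left to right) and the mean ± SD beside each group. The top row holds genes that fell and the bottom row genes that rose in *Lhx6* mutants, and in each panel the *Lhx6* groups are apart while the step between the *Mtg8* groups is smaller or absent.

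Transcription factors of the lineage were in both directions. Of 14 tested MGE transcription factors 2 rose and 3 fell in *Lhx6* mutants. The genes that fell include *Lhx6* itself, whose fall the mutation fixes, so it adds nothing to that count. *Dlx5* and *Dlx6* rose in *Lhx6* mutants alone, and *Lhx6* and *Satb1* were among those that fell. *Dlx5* and *Dlx6* are neighbouring homeobox genes of the forebrain GABAergic programme. *Dlx6* was at 735, 551, 711.2 and 629 in *Lhx6* controls and at 2939, 1915, 2504, 2092 and 1279 in *Lhx6* mutants, with *Mtg8* values of 1282, 777 and 1091 and of 647, 620 and 1183. Its exons overlap *Dlx6os2*. *Dlx5* ranged from 1932 to 2301 and from 3828 to 5357 in the *Lhx6* table, and its effects of 1.02 and -0.25 differed by 1.27 ± 0.23 (adjusted p = 0.00975). The difference for *Satb1* was -0.95 (adjusted p = 0.171).

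Of 13 tested genes of subpallial projection and cholinergic neurons, 3 rose and none fell in *Lhx6* mutants. *Bcl11b* and *Pbx3*, which both encode transcription factors, were among these and passed the test of the difference. *Bcl11b*, which encodes CTIP2, rose from 5256 to 7877 in controls to 9500 to 22824 in mutants. In the *Mtg8* table its groups were separate in the other direction, at 5857 to 6514 and 2622 to 5389, with an *Mtg8* effect of -0.55 ± 0.28. *Pbx3* was higher in the mutants of both tables, by 4.94 and 1.42. Its *Mtg8* effect passed only at an unadjusted p (0.000145, adjusted p = 0.232). The gene lies on chromosome 2 within 5 Mb of *Lhx6*. It was the one gene besides *Lhx6* among the 84 to do so.

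In the migration and guidance list, 4 of 34 tested genes rose and 2 fell in *Lhx6* mutants. *Robo2*, a receptor for SLIT proteins, ranged from 1306 to 1852 in *Lhx6* controls and from 3879 to 7929 in mutants, and *Unc5c*, a netrin receptor, from 113 to 260 and from 331 to 1079. Their differences were 2.16 ± 0.36 and 2.12 ± 0.46 (adjusted p = 0.00590 and 0.0435). With name style as a term the differences were 1.69 and 1.81, and neither was called (adjusted p = 0.212 and 0.579). The call of *Unc5c* was also lost in 12 of the 15 fits that left out 1 library. *Robo1* and *Nrp2* rose in *Lhx6* mutants without a difference called by limma (adjusted p = 0.223 and 0.192), while DESeq2 called that of *Robo1*. The exons of *Unc5c* overlap *Gm15688*.

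**Figure D3:**
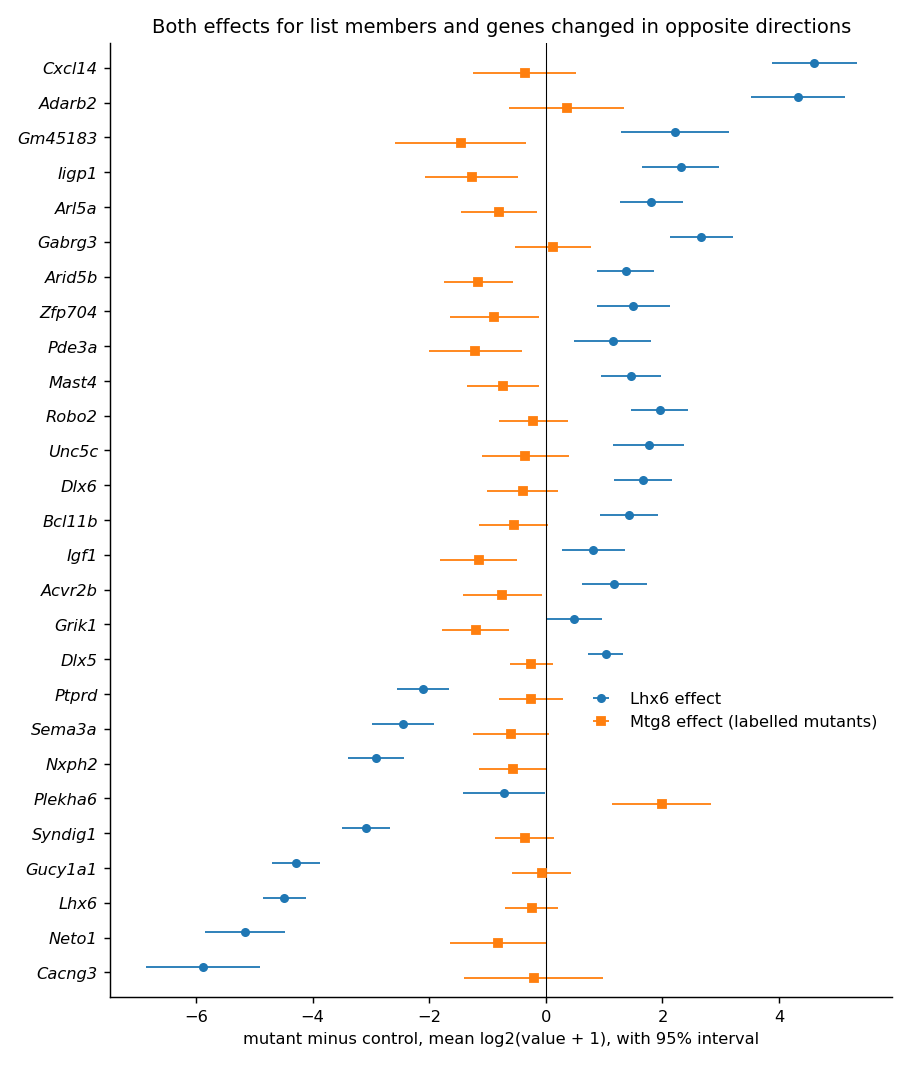
The *Lhx6* effect (circles) and the *Mtg8* effect (squares) with their 95% intervals are plotted for 27 genes, drawn from list members changed in *Lhx6* mutants alone or in opposite directions and the 10 genes changed in opposite directions with the largest differences. For *Cacng3*, *Neto1*, *Lhx6* and *Gucy1a1* the *Lhx6* intervals lie below -3 and the *Mtg8* intervals reach 0, whereas for *Arid5b*, *Iigp1* and *Arl5a* the intervals lie on opposite sides of 0.

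"Alone" here means that no *Mtg8* change was detected, not that none exists. The 95% interval of the *Mtg8* effect lay within ±1 for 40 of the 63 genes and within ±0.5 for 3, and for the other 23 it reached beyond ±1. All 63 genes had non-overlapping *Lhx6* groups, which 6.28% of all tested genes had, and 15 had non-overlapping *Mtg8* groups, which 10.3% of all tested genes had. The adjusted *Lhx6* p that chose these genes favours separate *Lhx6* groups, so that count is a description. The *Mtg8* estimate was below 0 for 16 of the 19 lower genes and for 36 of the 44 higher genes, and its median over all genes tested was -0.012. A called difference chose these genes, which favours *Mtg8* estimates below 0 among the higher ones and above 0 among the lower ones. The count of the lower genes thus runs against that choice, with a median *Mtg8* effect of -0.26. Both counts of signs are a description.

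The promoters of the leading genes are shown with the homeodomain core TAATTA in capitals where it occurs, since LHX6 is a homeodomain factor. The core reads the same on both strands and was searched from 250 bases before to 50 bases after each RefSeq start site (GRCm38.p6). Of the *Lhx6*-alone genes with a promoter in the table it was found in 0 of 15 lower and 2 of 30 higher ones (6.67%), *Adarb2* and *Vldlr*, and in 1 of 11 genes changed in opposite directions (9.09%), *Btbd3*. It was found in 307 of 9611 matched tested genes (3.19%) and in 6.12% of all genes in the table. A match is a description of the letters and not a bound site. The sequences run 5′ to 3′ on the gene's strand, for *Adarb2* at chr13:8202616-8202915 (plus), *Gucy1a1* at chr3:82145601-82145900 (minus), *Cxcl14* at chr13:56296502-56296801 (minus) and *Arid5b* at chr10:68278677-68278976 (minus).
Adarb2: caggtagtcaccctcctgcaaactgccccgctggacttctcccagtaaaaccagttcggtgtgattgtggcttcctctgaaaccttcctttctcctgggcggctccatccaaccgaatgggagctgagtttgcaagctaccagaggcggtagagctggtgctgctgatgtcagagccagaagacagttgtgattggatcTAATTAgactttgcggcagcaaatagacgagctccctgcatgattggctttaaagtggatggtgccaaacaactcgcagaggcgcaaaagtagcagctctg
Gucy1a1: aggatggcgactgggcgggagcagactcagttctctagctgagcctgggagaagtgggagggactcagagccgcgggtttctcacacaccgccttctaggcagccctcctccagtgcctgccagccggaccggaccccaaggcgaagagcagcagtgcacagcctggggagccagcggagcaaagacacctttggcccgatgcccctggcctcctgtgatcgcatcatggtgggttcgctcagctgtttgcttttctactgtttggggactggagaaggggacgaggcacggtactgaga
Cxcl14: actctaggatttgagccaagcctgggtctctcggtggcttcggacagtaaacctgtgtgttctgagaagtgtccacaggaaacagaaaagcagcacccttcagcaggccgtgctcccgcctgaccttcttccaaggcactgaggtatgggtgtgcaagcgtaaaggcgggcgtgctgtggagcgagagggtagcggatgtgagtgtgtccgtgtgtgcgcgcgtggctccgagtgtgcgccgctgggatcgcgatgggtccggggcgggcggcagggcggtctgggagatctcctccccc
Arid5b: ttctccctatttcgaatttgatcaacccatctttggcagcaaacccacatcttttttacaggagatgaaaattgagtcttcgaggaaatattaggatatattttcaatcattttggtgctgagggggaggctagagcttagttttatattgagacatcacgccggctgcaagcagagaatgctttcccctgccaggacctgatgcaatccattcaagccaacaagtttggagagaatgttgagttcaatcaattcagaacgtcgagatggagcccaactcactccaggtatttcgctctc

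The class of genes changed in opposite directions held 17 members, and all but *Plekha6* were higher in *Lhx6* mutants and lower in *Mtg8* libraries. They did not share a list: *Igf1* is an insulin-like growth factor, *Acvr2b* an activin receptor, *Grik1* a kainate receptor subunit, *Wls* the carrier that exports WNT ligands, *Iigp1* an interferon-inducible GTPase, *Pde3a* a cyclic nucleotide phosphodiesterase, and *Mast4* and *Cdk14* are kinases. The median effects were 1.15 for *Lhx6* and -0.88 for *Mtg8*. Groups did not overlap in either table for 9 genes, against 0.973% of all genes tested, and in the *Mtg8* table for 15, against 10.3%, and the p-values that chose these genes favour such separation. Each effect was required to pass only an unadjusted p of 0.05, and none of the *Mtg8* effects passed the adjusted one. The adjusted test is that of the difference.

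*Iigp1* (ENSMUSG00000054072.12, chr18:60376027-60392634) was at 38.5, 34.6, 28.6 and 42.8 in *Lhx6* controls and at 92.8, 195, 319, 212 and 158 in *Lhx6* mutants. In the *Mtg8* table it was at 64.8, 72.5 and 107 in controls and at 31.7, 30.3 and 35.2 in mutants. Neither pair of groups overlapped, and the difference was 3.58 ± 0.49 (adjusted p = 0.00120). *Arid5b* (ENSMUSG00000019947.10, chr10:68092520-68278740, minus strand), an AT-rich DNA-binding factor, was at 309, 290, 382 and 361 and at 921, 1014, 886, 1084 and 529 in the *Lhx6* table. It was at 837, 560 and 553 in *Mtg8* controls and at 404, 212 and 270 in *Mtg8*-labelled mutants. The effects of 1.37 ± 0.23 and -1.16 ± 0.28 differed by 2.53 ± 0.36 (adjusted p = 0.00154).

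*Arl5a*, a small GTPase of the ARF family, was at 2578, 2214, 5233 and 5129 in *Lhx6* controls and at 9798, 11613, 18029, 15171 and 9212 in *Lhx6* mutants, and its controls fell into a lower and a higher pair. Its *Mtg8* values were 4233, 5169 and 5150 in controls and 3464, 2340 and 2644 in mutants. *Mast4* ranged from 55.8 to 94.9 and from 145 to 262 in the *Lhx6* table, and from 147 to 188 and from 92.8 to 124 in the *Mtg8* table. *Gm45183*, an unnamed gene, was low throughout, at 8.86 to 16.6 and 34.6 to 72.6 in the *Lhx6* table and at 14.7 to 28.8 and 3.40 to 10.7 in the *Mtg8* table. The *Mtg8*-labelled mutants of *Gm45183* had a mean of 8.07, against 22.7 in *Mtg8* controls. This gene thus reached the mean of 10 in that table only through the controls. *Arl5a*, *Mast4* and *Gm45183* had no overlap between groups in either table.

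For other genes of the class 1 of the effects was less secure. *Igf1* was at 111, 100, 92.1 and 87.2 in *Lhx6* controls and at 184, 122, 244, 243 and 110 in mutants, so *Lhx6* mutant 6 lay among the controls. Its *Mtg8* groups were apart, at 186, 163 and 148 and at 83.8, 77.2 and 61.9. *Grik1* was at 851, 469, 701.97 and 579 and at 640, 913, 1473, 854 and 770 in the *Lhx6* table, with overlap and an unadjusted p of 0.0431. It was at 1638, 1455 and 1627 in *Mtg8* controls and at 782, 513 and 795 in *Mtg8*-labelled mutants. *Zfp704*, a zinc finger gene, overlapped in both tables. *Pde3a* and *Acvr2b* overlapped in the *Lhx6* table, and their differences of 2.36 ± 0.49 and 1.92 ± 0.42 had adjusted p-values of 0.0354 and 0.0452.

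*Plekha6*, a pleckstrin homology domain protein, ran the other way. It was at 51.9, 66.5, 54.4 and 59.0 in *Lhx6* controls and at 43.3, 37.0, 41.9, 18.4 and 40.9 in *Lhx6* mutants. It was at 21.2, 9.60 and 15.7 in *Mtg8* controls and at 52.1, 61.6 and 72.6 in *Mtg8*-labelled mutants. Both pairs of groups were apart, and the difference was -2.70 ± 0.52 (adjusted p = 0.0192).

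**Figure D4:**
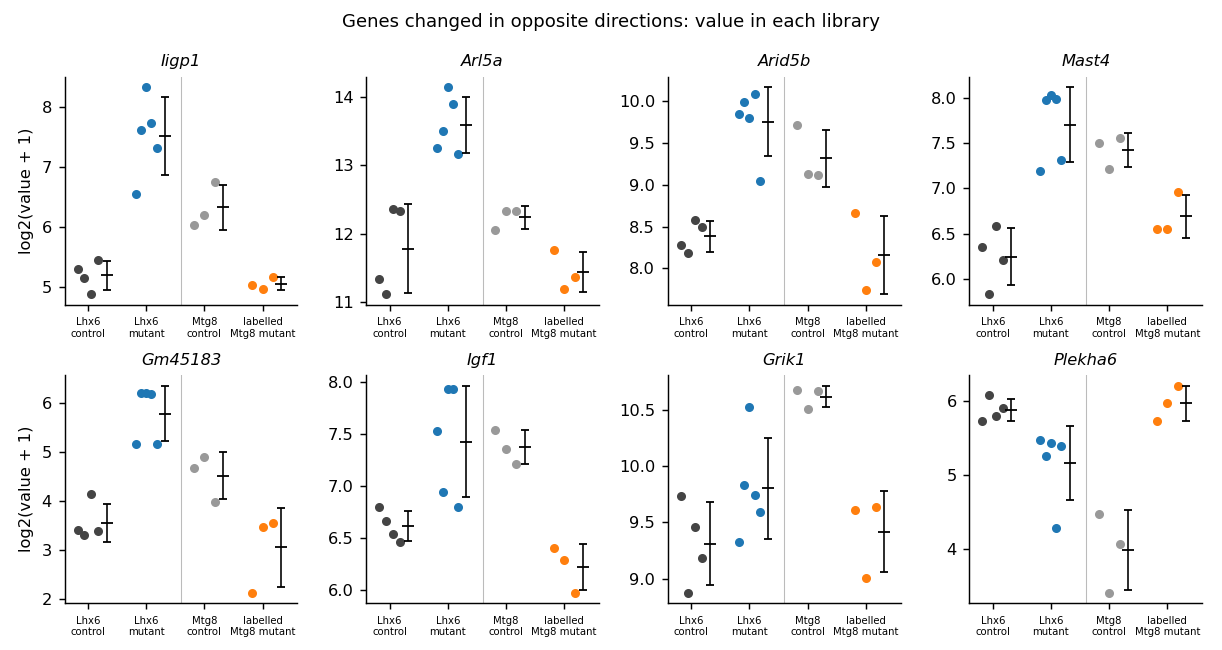
Each panel plots 1 gene changed in opposite directions as log2(value + 1) of the normalised count, with 1 point per library and the mean ± SD beside each group. The first 7 genes are higher in *Lhx6* mutants and lower in *Mtg8* libraries than in their own controls, *Plekha6* is the reverse, and the *Lhx6* groups of *Igf1* and *Grik1* overlap.

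The genes changed in opposite directions were long. Their median exon length was 9940 bases and their median span 186 kb, against 3701 bases and 16.1 kb over all genes tested, and their median GC content was 44.9% against 49.0%. The 44 genes higher in *Lhx6* mutants alone were long as well (8142 bases, 174 kb). Over all genes the *Mtg8* effect had a correlation of -0.15 with log2 exon length and of 0.15 with GC content, and the *Lhx6* effect one of 0.047 and -0.053. With the length and GC trend removed from each effect, 13 of the 17 genes and 60 of the 63 *Lhx6*-alone genes were still called for the difference. The part of length in these differences beyond that fit was not tested.

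On the side of *Mtg8* the nearest to a change alone was *Ier2*, an immediate early gene that is also among 9 listed markers of dissociation stress. It was at 382, 591, 557 and 469 in *Lhx6* controls and at 297, 384, 485, 420 and 501 in *Lhx6* mutants. In the *Mtg8* table it was at 17.9, 12.8 and 19.6 in controls and at 37.4, 188 and 342 in mutants. The *Mtg8* effect of 2.95 ± 0.52 had an adjusted p of 0.178, while its difference from the *Lhx6* effect, -3.22 ± 0.67, passed (adjusted p = 0.0342). The call was lost in 11 of the 15 fits that left out 1 library, and with name style as a term the difference was -1.97 (adjusted p = 0.759). By edgeR and DESeq2 the difference was -3.76 and -3.77 and was called (adjusted p = 0.00738 and 7.62e-07). Within the undated libraries, where *Lhx6* mutants and *Mtg8* controls are 1 library each, it was -3.61. The *Mtg8* controls lay below all the other 12 libraries, and levels set across separately normalised tables are a description. Of the 6 stress markers tested, *Ier2* alone had an unadjusted p below 0.05 for *Mtg8*. The summed level of the stress markers was 614 to 1582 in *Mtg8* controls and 1002 to 2641 in *Mtg8*-labelled mutants. These sums overlapped, and the part of dissociation stress in the *Ier2* values was not tested.

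At unadjusted p-values (below 0.05 for the difference and the *Mtg8* effect, and 0.05 or more for the *Lhx6* effect), 302 genes would count as changed in *Mtg8* libraries alone (1.93%), 205 higher and 97 lower, and the *Mtg8* groups of 163 did not overlap. Over all genes 10.3% did not, and the *Mtg8* p that chose these genes favours separation. With all libraries none of the following passed the adjusted limma test, while DESeq2 called *Ssbp4*, *Sypl2* and *Htra1* (adjusted p = 0.00203, 0.0108 and 0.0231). *Sypl2*, a synaptophysin-like protein, was at 3.35, 1.07 and 0 in *Mtg8* controls and at 27.2, 25.7 and 22.2 in *Mtg8*-labelled mutants, with a difference of -4.24 ± 0.95 (adjusted p = 0.0539). Its *Mtg8* controls, with a mean of 1.47, lie near 0, and it reached the mean of 10 in that table only through the mutants. The size of its difference depends on the pseudocount of 1, and its adjusted p-values here and below rest on these controls. *Htra1*, a secreted protease, was at 6.71, 9.60 and 18.59 and at 28.3, 50.5 and 87.9. *Ssbp4*, of the family of LDB-binding proteins, was at 14.5, 9.60 and 6.85 and at 15.9, 69.8 and 258, so its mutants were spread widely. The remaining genes by the same rule were *Pdgfrl*, *Gm5590* and *Gm7125*, higher in *Mtg8* libraries, and *Gm4117*, lower there.

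In 53 of the 205 higher genes (25.9%) the *Mtg8* controls lay below all the other 12 libraries, as they did in 188 of all genes tested. Direction and control level share the same *Mtg8* controls here, so this is a description. The absence of genes called by limma depended on *Mtg8*-labelled mutant 2, and DESeq2 made calls with it included. Without it 454 genes differed between the mutants and 177 were changed in *Mtg8* libraries alone, 174 of them higher. That fit leaves 2 undated mutants against 3 controls of which 2 are dated, so name style and genotype nearly coincide in it, and their parts cannot be told apart. *Ssbp4*, *Htra1* and *Sypl2* passed without it (adjusted p = 0.00376, 0.0389 and 0.0426), and *Ier2* passed with a difference of -4.13 (adjusted p = 5.98e-05). *Pdgfrl*, *Gm5590*, *Gm7125* and *Gm4117* did not. Over those 174 genes the median step from the control mean was 1.32 in mutant 3, 1.79 in mutant 4 and -0.40 in mutant 2, and mutant 2 lay above the control mean in 26. The genes were chosen from mutants 3 and 4 against these controls, so the sign in those mutants is fixed by the choice.

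Other pathways gave few or no called differences. No gene among 24 potassium channels, 25 Wnt pathway genes or 19 MTG corepressors and LIM cofactors passed the limma test of the difference, where 7, 6 and 5 had an unadjusted p below 0.05, as did 10.8% of all genes tested. edgeR called 0 in each list, and DESeq2 called 2, 1 and 1 (*Kcnip1* and *Kcnmb2*, *Fzd9*, and *Ssbp4*). Of the potassium channels 5 fell in *Lhx6* mutants, *Kcnc2*, *Kcns3*, *Kcnmb2*, *Kcnk2* and *Kcnd3*, and of the Wnt genes *Wnt5a* and *Lrp5* rose. In the BMP, activin and TGF-beta list, *Acvr2b* was the 1 of 27 genes called for the difference by limma, and *Tgfb3*, with effects of -3.00 and -0.68, had an adjusted p of 0.0772. DESeq2 called *Acvr2b*, *Tgfb3* and *Fstl5*. Among synaptic organizers DESeq2 called 7 of 30 and limma 3, and among migration and guidance genes 6 of 34 and 3. Among glutamate receptor genes these numbers were 5 of 21 and 4. In the MGE and CGE lists, each with 14 tested genes, DESeq2 called 5 and 4 where limma called 3 in each. The MGE count of each tool includes *Lhx6* itself. Both tools called 3 subpallial projection and cholinergic genes and 1 nitric oxide and cGMP gene. DESeq2 also called more genes than limma over all genes tested, so its list counts have a larger background. *Bmpr1b* had effects of -0.11 and 1.91 with an unadjusted p of 0.000361 for *Mtg8* and an adjusted p of 0.151 for the difference. Of 11 neuropeptides and receptors 5 fell in *Lhx6* mutants, and *Sst* alone passed for the difference.

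Markers of other cells moved in part with the groups, and their part in the results was not tested. The summed level of 9 radial glia genes was 6744 to 8465 in *Mtg8* controls and 9189 to 13696 in *Mtg8*-labelled mutants, and that of 9 cycling-cell genes 4062 to 4545 and 5638 to 6011. In the *Lhx6* table these sums overlapped, at 10177 to 12308 against 9638 to 18006 and at 4841 to 6335 against 3538 to 11241. Among *Lhx6* mutants both were highest in mutant 6, at 18006 and 11241, with the next mutant at 15971 and 6799. The sum of 12 pyramidal-lineage genes was 17247 to 22856 in *Lhx6* controls and 13606 to 18649 in *Lhx6* mutants, and 5894 to 14483 and 9264 to 23230 in the *Mtg8* table. *Neurod6* makes up much of that sum, which among *Lhx6* mutants was also highest in mutant 6. The median *Mtg8* effect over the 12 genes was 0.60, and 4 were higher in *Mtg8*-labelled mutants at an unadjusted p below 0.05, with effects of 1.59 for *Emx1*, 1.16 for *Neurod2*, 1.12 for *Fezf2* and 0.88 for *Tbr1*. None of the 12 was called at the adjusted p, which was 0.232 for *Neurod2* and 0.578 for *Emx1*. The sum of the 7 interneuron genes found, with *Dlx5* and *Dlx6* among them, was 19203 to 26631 and 23208 to 39466 in the *Lhx6* table and 30467 to 34318 and 18680 to 35962 in the *Mtg8* table. In bulk RNA, fewer cells of a type and less RNA per cell cannot be told apart. Microglial, endothelial, pericyte and oligodendrocyte precursor genes each summed, list by list, to at most 943 in every library, while haemoglobin and other erythroid genes reached 58744 and overlapped between groups in both tables. *Flt1*, *Cdh5*, *Tie1* and *Tek* were at 0 in 4 to 6 of the 9 libraries of the *Lhx6* table.

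Name style was examined gene by gene. In *Lhx6* mutant 6, whose undated name matches those of the controls, all 63 *Lhx6*-alone genes kept the direction of the main result, as did 16 of the 17 genes changed in opposite directions (all but *Fam135b*). The effect was smaller in mutant 6 than in the dated mutants for most genes: the median over the 44 higher genes was 1.34 against 1.91, over the 19 lower genes -2.34 against -2.68, and over the 16 opposite genes higher in *Lhx6* mutants 0.65 against 1.27. Mutant 6 is part of the fit that chose these genes, so its directions are a description. With name style as a term, 26 genes differed, 25 of them among the 84, including 19 *Lhx6*-alone genes and 3 genes changed in opposite directions (*Iigp1*, *Arid5b* and *Wls*). That term is a single shift between name styles, assumed equal in both tables. It therefore draws also on the *Mtg8* table, where both genotypes hold both styles. The named *Lhx6*-alone genes not called with that term were *Mkx*, *Efcab6*, *Nxph2*, *Sema3a*, *Adarb2*, *Angpt1*, *Epha7*, *Gm43111*, *Sox1ot*, *Dlx6*, *Bcl11b*, *Robo2*, *Gabrg3*, *Unc5c*, *Vldlr* and *Sox1*. Within the libraries that share a name (controls 1 and 2 with *Lhx6* mutant 6, and controls 1 and 2 with *Mtg8*-labelled mutant 2), the difference had its main sign in 63 of 63 *Lhx6*-alone genes and 17 of 17 opposite genes. Its median size there was 1.65 against 2.03 in all libraries for the former and 1.31 against 1.96 for the latter. These libraries are part of the main fit, so the signs are not independent of it. What the date stands for was not stated, and in the *Lhx6* table style and genotype can be told apart only through mutant 6. Its radial glia, cycling-cell and pyramidal-lineage sums were the highest among *Lhx6* mutants, and their part in its smaller effects was not tested.

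Among the 84 genes, 43 stayed called whichever single library was left out, including *Cacng3*, *Pxdc1*, *Neto1*, *Gucy1a1*, *Cxcl14*, *Adarb2*, *Iigp1*, *Arid5b* and *Arl5a*. Among named genes the call was lost in at least 1 such fit for *Sema3a*, *Gm43111*, *Sox1ot*, *Dlx6*, *Bcl11b*, *Unc5c*, *Gm45183*, *Plekha6*, *Zfp704*, *Pde3a*, *Igf1*, *Acvr2b*, *Grik1*, *Cdk14*, *Fam135b* and *Ier2*. A two-sided exact permutation test within a table allows a smallest p of 0.0159 for 4 against 5 and of 0.1 for 3 against 3, so it cannot pass 0.05 for *Mtg8*.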

How the data were processed

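YFP-positive cells were sorted from E14.5 cortex, 1 embryo per library, in 15 libraries. According to the labels and the study's methods, the authors used fastp 0.20.1 to trim single reads of 75 bases, STAR 2.7b for alignment to GRCm38.p6 and featureCounts 1.6.4 for counts on GENCODE annotation, and sex-linked genes were filtered. The deposited signal values are gene counts divided by DESeq2 size factors, each table normalised alone by the authors. The same tables hold the authors' own comparison (log2 fold change, its error, test statistic, p-value and adjusted p-value), which was not used. Every value was a whole multiple of 1 read within 0.01 (100% in each library), which gave 12218422 to 22053032 reads per library.

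Genes with a mean of at least 10 in each table were kept and log2(value + 1) was fitted with limma 3.58.1 in R 4.3.3, with a mean-variance trend, as 4 group means over 15 libraries. The contrasts were each mutant against its control and the difference of these effects. Both tables share 1 estimate of the spread. P-values were adjusted by Benjamini-Hochberg over all 15629 genes, and scripts were tested on simulated data. A gene with a called difference was placed under *Lhx6* alone when its *Lhx6* effect had an adjusted p below 0.05 and its *Mtg8* effect an unadjusted p of 0.05 or more (the reverse for *Mtg8* alone), and under opposite directions when the effects had opposite signs and each an unadjusted p below 0.05.

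Named genes were the targeted genes, *Sst* and *Npy* for reference, the 10 lower and 10 higher *Lhx6*-alone genes with the largest difference and no overlap of *Lhx6* groups, the 10 opposite genes with the largest difference, up to 8 genes at unadjusted p-values, and list members in a class. Other list members, *Gad1*, *Neurod6*, *Vldlr*, *Btbd3*, *Wls*, *Cdk14*, *Fam135b* and *Sox1* were named after their values were seen. The classes and 13 gene lists were chosen with earlier results of these data known. Count tests on the reads so recovered (DESeq2 1.42.0, edgeR 4.0.16), other filters and pseudocounts, other scaling, name style, a replicate block and leaving out each library were tried as alternatives. Gene positions are from GENCODE and promoters from RefSeq, both on GRCm38. Some items are not reported here.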

Additional observations from a re-analysis of the deposited data

Results flagged for a closer look

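In 6 of 104 groups of 4 or 5 libraries examined for the named genes, 1 library lay far from the rest of its group, where chance gives such a gap in about 1 in 20 groups. Among *Lhx6* controls, *Sst* was highest in control 4 at 12780 normalised counts, with the next at 11145. In control 3, *Bcl11b* was at 7877 with the next at 5528, and *Gm45183* was at 16.6 with the next at 9.61. Among *Lhx6* mutants, *Mkx* was at 14.8 in mutant 1 with the next at 1.24, and *Nxph2* was at 802 in mutant 3 with the next at 397. *Plekha6* was lowest in mutant 5, at 18.4 with the next at 37.0.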

How the results depend on the processing

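The numbers that follow are genes with a called difference, then *Lhx6*-alone, *Mtg8*-alone and opposite genes, and the main values were 84, 63, 0 and 17. No named gene reversed its difference under any alternative run. At an adjusted p below 0.01 the numbers were 42, 33, 0 and 6, and without the limma trend 53, 40, 0 and 10. With each table fitted alone they were 153, 100, 0 and 34, with DESeq2 320, 195, 32 and 65, and with edgeR 88, 65, 1 and 16. With name style as a covariate they were 26, 18, 0 and 4. Within the undated libraries alone, an alternative chosen after seeing the data, they were 84, 29, 39 and 12, and 19 of these genes were among the main 84. In that fit the *Lhx6* mutants and the *Mtg8* controls are 1 library each, assumed to vary like the other groups. With the length and GC trend removed, also chosen after seeing the data, they were 103, 77, 0 and 17. The other filters, pseudocounts and TMM factors kept each of the 4 numbers within 1.5 times. The causes were not tested.

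When 1 library was left out, the fits gave 48 to 454 called genes, 37 to 123 *Lhx6*-alone, 0 to 177 *Mtg8*-alone and 4 to 146 opposite genes. The called number moved by over 1.5 times without *Lhx6* mutant 6 (198), *Mtg8* control 1 (52), *Mtg8* control 2 (48), *Mtg8*-labelled mutant 2 (454) and *Mtg8*-labelled mutant 3 (51). The opposite genes fell to 11 without *Lhx6* control 1 or mutant 2, to 8 without *Lhx6* control 2 or mutant 5 and to 9 without *Lhx6* control 4.

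With the replicate block within each table the numbers were 4, 2, 1 and 1, and 3 of the called genes were among the main 84. The numbers were not taken to pair the libraries. Same-numbered deviations correlated at -0.184, 0.0219 and 0.0577 in the *Lhx6* table. In the *Mtg8* table both same-numbered pairs (0.144 and 0.139) lay above every other pairing (at most 0.0590), and pairing there is not excluded by 2 pairs. Both pairs also share a name style, and control 2 and mutant 2 share the rest of their name. Control 1 with mutant 2 (0.0590) and control 4 with mutant 3 (0.0468) share a style too. Number and name style were not told apart. Depth limits the low values: 1 read was worth 0.764 to 1.24 normalised counts, so that the 0.969 and 1.24 of *Mkx* in *Lhx6* mutants 5 and 6 are 1 read each.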

Other observations

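Genes with a mean of 10 or more in one table alone entered no comparison of effects. The *Lhx6* table held 1098 such genes, of which 14 were higher and 1 was lower in *Lhx6* mutants when that table was fitted by itself. The *Mtg8* table held 503 such genes, of which 0 were called by limma and 21 had an unadjusted p below 0.05. A gene low in *Lhx6* controls can reach the mean of 10 through the mutants, as *Dkk2* did. Its mean was 0.921 in *Lhx6* controls and 170 in *Lhx6* mutants. The filter thus favours genes higher in *Lhx6* mutants, and the split of 14 against 1 is a description. Among all 15629 genes tested, 195 were higher and 169 were lower.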
